A study of Saccharomyces paradoxus and Saccharomyces cerevisiae and Nakaseomyces glabratus with 58 samples.

Results

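The glyoxylate cycle, citrate synthase and gluconeogenesis genes were followed in 6 yeast species in which SFP1 or a gene of its orthogroup had been altered. They were chosen by name: the S. cerevisiae genes ICL1, MLS1, MDH2, CIT1, CIT2, FBP1, PCK1 and ACS1, and in each other species every count row that the deposited orthology table places with one of them. This gave 58 rows of 36369 in all, with 8 in S. cerevisiae, 12 in S. paradoxus, 13 in Nakaseomyces glabratus (the yeast also called Candida glabrata), 12 in Naumovozyma castellii, 8 in Kluyveromyces lactis and 5 in Schizosaccharomyces pombe. The orthogroups are wider than the 8 genes: they also hold ACS2, ICL2, the cohesin gene MCD1, DAL7 and MDH3. The choice used no measured value, but it was made with earlier results of these data known.

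Polyadenylated RNA was sequenced from 57 libraries in 19 groups of 3, lettered A to C, from cells in a medium that the labels abbreviate BMW. In log phase the S. cerevisiae groups were wild type, delta sfp1 and a strain with HA tagged Sfp1. S. paradoxus, K. lactis and S. pombe had wild type and delta sfp1, N. glabratus had wild type, delta CAGL0D00682g and delta CAGL0M09955g, and N. castellii had wild type, delta Scas551.1 and delta Scas719.24. Wild type and delta sfp1 S. paradoxus were also taken 30 and 60 min into the lag phase that followed the return of glucose. Strain backgrounds, the number of clones and whether libraries came from separate cultures are not given in the labels, so p-values measure only the spread between libraries.

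Yeast growing on glucose takes its carbon and energy chiefly through glycolysis, and needs most of the genes described here when it must build sugars from small carbon compounds such as acetate or ethanol. Acs1 activates acetate to acetyl-CoA. The citrate synthases Cit1 of the mitochondrion and Cit2 of the peroxisome join acetyl-CoA to oxaloacetate, isocitrate lyase (Icl1) and malate synthase (Mls1) then bypass the carbon-losing steps of the tricarboxylic acid (TCA) cycle, and the cytosolic malate dehydrogenase Mdh2 returns malate to oxaloacetate. Phosphoenolpyruvate carboxykinase (Pck1) and fructose-1,6-bisphosphatase (Fbp1) carry the irreversible steps from there toward glucose. In S. cerevisiae glucose represses most of these genes through Mig1 and related repressors, Cat8 and Sip4 activate many of them through the carbon source response element, Rtg1 and Rtg3 drive CIT2 through the R box, and the GID ubiquitin ligase destroys Fbp1, Pck1, Icl1 and Mdh2 protein when glucose returns. Sfp1 itself is a zinc finger transcription factor known there as an activator of ribosome genes.

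The 8 S. cerevisiae genes lie apart from each other in the genome (build R64, coding spans): ICL1 (YER065C) on chromosome V at 285241 to 286914, MLS1 (YNL117W) on XIV at 406358 to 408022, MDH2 (YOL126C) on XV at 81787 to 82920 and CIT1 (YNR001C) on XIV at 629622 to 631061. CIT2 (YCR005C) lies on III at 120946 to 122328, FBP1 (YLR377C) on XII at 873746 to 874792, PCK1 (YKR097W) on XI at 631152 to 632801 and ACS1 (YAL054C) on I at 42881 to 45022. MLS1 and PCK1 are on the plus strand and the others on the minus strand. The 600 bases before each annotated coding start were searched on both strands for letters known from this pathway. The carbon source response element (CC, any base, T, any 4 bases, then CCG) was found before 6 of the 8 genes, against 518 of 6018 genes (8.61%): 3 matches each before PCK1 and MDH2, 2 each before MLS1 and ACS1, and 1 each before ICL1 and FBP1. None lay before CIT1 or CIT2. The R box (GTCAC) was found before 5 of the 8, against 49.1% of all genes, with 3 matches before CIT2, 2 each before ICL1 and MDH2 and 1 each before CIT1 and ACS1. The Mig1 cores CCCCGC (6.80% of genes) and CCCCAC (10.7%) were found only before CIT1 and FBP1 respectively, and no matches overlapped. A match is a description of letters and not of a bound site.

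Stretches of RefSeq sequence (R64) that hold these matches are shown for PCK1, MLS1 and MDH2, 3 of the 4 genes with 2 or more response elements, for ICL1, which carries both kinds of match, and for CIT2, which carries R boxes alone. Capitals mark the matches, read 5′ to 3′ on the strand of the gene: the response element, on either strand, in PCK1 (chrXI:630578-630812, plus strand) and MLS1 (chrXIV:405815-405880, plus), both motifs in ICL1 (chrV:287137-287324, minus) and MDH2 (chrXV:83275-83441, minus), and GTCAC or its reverse complement in CIT2 (chrIII:122508-122685, minus). Part of the region before CIT2, 399 bases of it, overlaps the annotated gene YCR006C.
PCK1: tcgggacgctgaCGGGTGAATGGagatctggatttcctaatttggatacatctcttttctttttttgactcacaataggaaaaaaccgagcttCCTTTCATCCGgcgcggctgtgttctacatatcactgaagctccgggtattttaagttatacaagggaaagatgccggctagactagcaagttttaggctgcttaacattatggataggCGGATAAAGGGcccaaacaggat
MLS1: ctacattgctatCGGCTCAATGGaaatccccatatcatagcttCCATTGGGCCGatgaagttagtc
ICL1: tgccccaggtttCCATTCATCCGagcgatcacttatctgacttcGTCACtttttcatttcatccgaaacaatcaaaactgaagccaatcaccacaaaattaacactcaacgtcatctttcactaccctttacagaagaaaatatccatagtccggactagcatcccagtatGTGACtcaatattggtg
MDH2: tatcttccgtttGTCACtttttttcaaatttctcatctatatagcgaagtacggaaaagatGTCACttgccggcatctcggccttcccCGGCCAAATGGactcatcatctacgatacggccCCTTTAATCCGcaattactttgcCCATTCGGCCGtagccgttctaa
CIT2: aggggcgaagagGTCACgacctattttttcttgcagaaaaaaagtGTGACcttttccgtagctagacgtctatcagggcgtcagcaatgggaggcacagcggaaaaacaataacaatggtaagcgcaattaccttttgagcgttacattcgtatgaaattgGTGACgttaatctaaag

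As a check of the labels, SFP1 (YLR403W) had 561 counts in wild type S. cerevisiae, 509 in the HA tagged strain and 0 in the deletion. The deleted genes also had 0 counts in the N. glabratus, K. lactis and S. paradoxus lag phase deletions, 2 counts in S. paradoxus at log phase, and in N. castellii 5 counts of NCAS0A02570 remained in delta Scas551.1 and 0 counts of NCAS0J01590 in delta Scas719.24. In S. pombe SPAC16.05c kept 226 counts in the libraries labelled deletion against 403 in wild type, so those libraries go against their label and are named by it. Total counts ranged from 34081 to 3447874 per library. The lowest belonged to replicate A of the S. paradoxus deletion at 30 min, the other lag phase libraries held 418292 to 640282, and no log phase library held fewer than 712972. Changes of 2-fold placed in simulated counts were recovered in 72% of cases in S. paradoxus at 30 min and in 100% in the S. cerevisiae deletion. They were placed only in genes whose mean CPM was at least 4 on the log2 scale. The recovery therefore does not cover lower member rows, such as PCK1 and MLS1 of S. cerevisiae.

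In S. cerevisiae at log phase, 7 of the 8 genes rose in the sfp1 deletion and MDH2 fell. PCK1 (5.17-fold) and CIT2 (4.91-fold) rose most, while ICL1, MLS1, ACS1, FBP1 and CIT1 rose between 1.61-fold and 2.64-fold. Of all 5826 genes tested with edgeR's quasi-likelihood test, 52.1% were called, with 26.0% rising and 26.0% falling. The median log2 fold change was 1.14 over the 8 genes and 0.03 over all genes. This median and the count of rising genes include PCK1 and MLS1, which passed the filter on low counts only through the deletion libraries. When TMM factors were left out and library size alone was used, the all-gene median shifted by 0.23, and 2513 rose and 890 fell in place of 1517 and 1516. A log2 fold change is given with its standard error (±) over 3 libraries a group, and levels are CPM, the usual depth-scaled read counts, on TMM-scaled library sizes in libraries A, B and C. The share of all genes whose groups do not overlap was not computed, so a lack of overlap is given throughout as a description only.

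CIT2, the peroxisomal citrate synthase gene that is a classical target of mitochondria-to-nucleus signalling, stood at 27.9, 26.9 and 28.2 CPM in wild type and at 134, 135 and 139 CPM in the deletion. The groups lay far apart with little spread in either, and the log2 fold change was 2.30 ± 0.10 (adjusted p = 1.4e-11). CIT1, its mitochondrial counterpart, went from 194, 187 and 171 CPM to 286, 284 and 312 CPM. It too had every deletion library above every wild type library, with a smaller change of 0.68 ± 0.07 (adjusted p = 6.2e-07).

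PCK1, the first committed gene of gluconeogenesis, was low in wild type, at 1.55, 2.05 and 2.35 CPM, and reached 11.9, 11.2 and 9.44 CPM in the deletion. The rise was 2.37 ± 0.35 (adjusted p = 2.5e-05), from a level that remained low. PCK1 passed the filter on low counts only through the deletion libraries, so its entry into the test depended on the rise. FBP1 was measured at 6.19, 7.50 and 2.74 CPM in wild type and 13.2, 9.13 and 9.75 CPM in the deletion. The wild type libraries were uneven, and the change of 0.97 ± 0.32 (adjusted p = 0.019) was no longer called without wild type C (0.60, adjusted p = 0.128), without deletion A (0.79, adjusted p = 0.095) or with DESeq2 (adjusted p = 0.085).

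Of the enzymes that define the glyoxylate bypass, ICL1 had 41.0, 34.4 and 30.2 CPM in wild type and 57.7, 66.7 and 58.8 CPM in the deletion (0.83 ± 0.13, adjusted p = 4.3e-05). MLS1 had 3.10, 2.39 and 1.96 CPM against 6.59, 7.37 and 5.18 CPM (1.40 ± 0.36, adjusted p = 0.0040). Both were higher in every deletion library, and MLS1 needed these libraries to pass the filter on low counts. ACS1, which feeds the cycle with acetyl-CoA, rose from 9.29, 13.6 and 14.5 CPM to 27.9, 35.8 and 34.1 CPM, again with no overlap (1.32 ± 0.17, adjusted p = 6.2e-06). MDH2 went the other way, from 89.8, 90.03 and 102 CPM to 56.8, 69.9 and 64.6 CPM, with every deletion library below every wild type library (-0.57 ± 0.09, adjusted p = 7.1e-05).

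**Figure D1:**
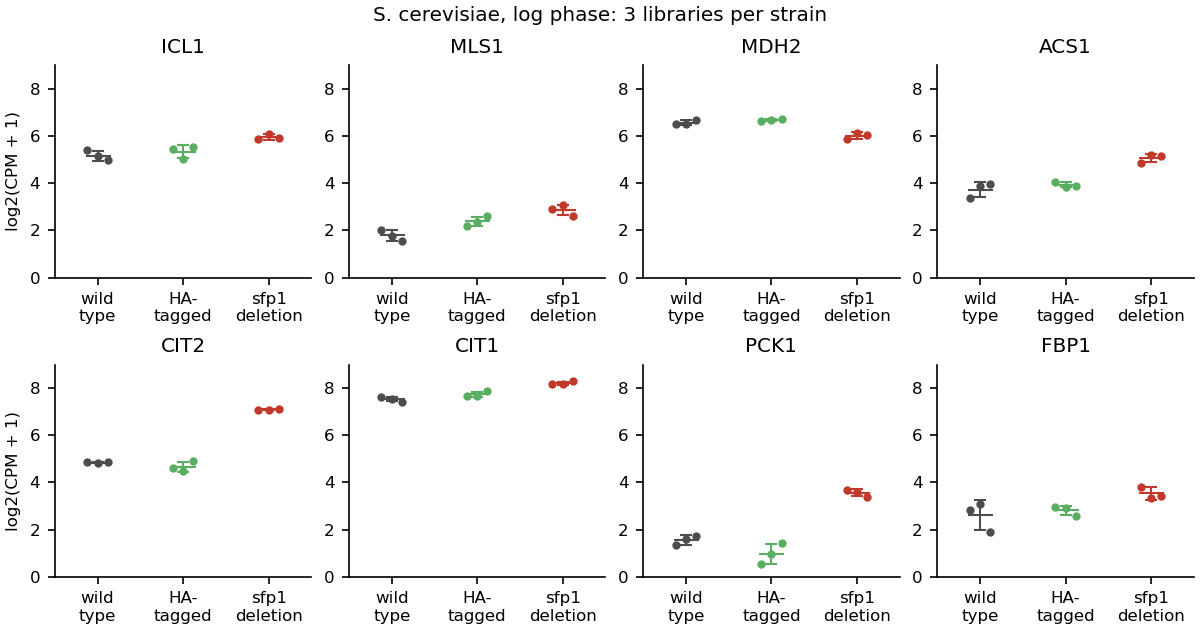
Levels of the 8 genes in S. cerevisiae at log phase, as log2(CPM + 1) on the vertical axis, for wild type, HA tagged and sfp1 deletion strains; dots are the 3 libraries and bars the mean ± SD of the log values. The deletion libraries stand above the wild type libraries in every panel but MDH2, where they stand below, and CIT2 and PCK1 show the widest gaps (2.30 and 2.37 on the log2 scale).

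Levels of different genes were compared per kilobase of coding length, as CPM per kb with the SD over 3 libraries. In wild type the order was CIT1 (128 ± 8.45), MDH2 (82.9 ± 6.32), ICL1 (21.0 ± 3.26), CIT2 (20.01 ± 0.480), ACS1 (5.83 ± 1.31), FBP1 (5.23 ± 2.35), MLS1 (1.49 ± 0.345) and PCK1 (1.201 ± 0.246). ICL1 and CIT2 did not differ beyond their spread, nor did ACS1 and FBP1, nor MLS1 and PCK1. In the deletion CIT2 (98.2 ± 2.01 CPM per kb) stood above MDH2 (56.2 ± 5.80), so that these levels exchanged places, and PCK1 (6.59 ± 0.775) stood above MLS1 (3.83 ± 0.667).

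In the HA tagged strain no member was called, and no gene of the whole table either (0.00% called). With an unadjusted p below 0.05 there were 318 genes and 1 member, CIT1, at 203, 199 and 233 CPM (0.21 ± 0.08, adjusted p = 0.78). DESeq2 called 3 genes higher and 5 lower. For PCK1, at 0.444, 0.928 and 1.67 CPM, the 95% interval of the log2 fold change was wide, from -2.20 to 0.10, and for CIT2 it ran from -0.45 to 0.07.

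The S. cerevisiae libraries also differed in mating type genes. The summed level of 6 a-type genes was 943 to 978 CPM in the deletion and 1645 to 1675 CPM in wild type, and that of 4 alpha-type genes was 80.3 to 90.2 CPM against 32.1 to 41.0 CPM. The part of this in the results above was not tested.

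Genes around the pathway moved unevenly in the S. cerevisiae deletion. The steps that run only in the glycolytic direction had 0 rising and 5 falling of 7, led by the hexokinase genes HXK1 (-5.07 ± 0.11), GLK1 (-1.33 ± 0.09) and HXK2 (-1.05 ± 0.06). Anaplerosis and the reversible glycolytic steps had 2 rising and 9 falling of 13, among them the malic enzyme gene MAE1 (-1.93 ± 0.09), the enolase gene ENO1 (-1.14 ± 0.11) and, upward, the pyruvate carboxylase gene PYC1 (0.99 ± 0.10). The TCA cycle had 5 rising and 4 falling of 17: the isocitrate dehydrogenase genes IDH1 (1.02 ± 0.07) and IDH2 (0.81 ± 0.06) rose and the mitochondrial malate dehydrogenase gene MDH1 fell (-1.15 ± 0.09). Other glyoxylate and peroxisomal partners had 4 rising and 0 falling of 6, with the second malate synthase gene DAL7 at 1.10 ± 0.14.

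Acetyl unit supply had 2 rising and 3 falling of 8, with ACH1 (1.22 ± 0.11) and ADH2 (1.05 ± 0.19), the alcohol dehydrogenase gene of ethanol use, up and ALD5 (-1.21 ± 0.08) down. Among carnitine enzymes and carriers 3 rose and 2 fell of 8, as with the carnitine acetyltransferase gene YAT1 (1.63 ± 0.13) and the dicarboxylate carrier gene DIC1 (-1.34 ± 0.14). Of 21 regulators 8 rose and 5 fell; the largest rises were in MIG3 (2.30 ± 0.13) and MIG2 (1.44 ± 0.11), which encode glucose repressors, and in HAP3 (1.26 ± 0.19), a subunit of the CCAAT-binding activator. The genes for degradation of gluconeogenic enzymes had 3 rising and 1 falling of 8, with GID4, the substrate receptor of the ligase, at 1.53 ± 0.13. Medians over these lists ran from -0.62 (irreversible glycolysis) to 0.85 (glyoxylate partners).

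In S. paradoxus, the closest relative of S. cerevisiae here, the same orthogroups hold 12 rows. The files give no gene names for them, so names follow the chromosome number inside each row name, which equals the S. cerevisiae chromosome in 3302 of 3318 single-copy orthogroups (99.5%). By that rule 7 rows carry the names of the 8 genes and PCK1 was not analysed. The ACS1 row (Spar_1.15) was below the filter on low counts, with 0 to 1.54 CPM in every wild type library and 2.45, 2.81 and 3.43 CPM in the log phase deletion, and no test was run on it.

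At log phase the deletion raised 7 and lowered 1 of the 11 rows tested, against 24.8% rising and 32.6% falling of all 4908 rows (57.4% called). Both citrate synthase rows, MLS1, the ICL2 row and MDH2 rose between 3.84-fold and 15.0-fold, while the ICL1 row did not pass. The median log2 fold change was 0.99 over the member rows and -0.05 over all rows. Member counts and medians, here and in lag phase, include the MLS1, ICL2 and ICL1 rows. These needed the deletion libraries to pass the filter on low counts. Library size alone moved the median of all rows by 0.50 and gave 2885 rising and 676 falling in place of 1216 and 1601.

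CIT2 (Spar_3.84) stood at 18.7, 19.3 and 11.5 CPM in wild type and at 290.3, 244 and 226 CPM in the deletion. The groups lay more than an order of magnitude apart (3.90 ± 0.17, adjusted p = 2.0e-19). CIT1 (Spar_14.363) went from 143, 133 and 158 CPM to 829, 806 and 787 CPM, a tight and complete separation (2.49 ± 0.10, adjusted p = 5.7e-20).

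MLS1 (Spar_14.221) had 3.45, 2.53 and 3.07 CPM in wild type and 35.0, 25.8 and 36.4 CPM in the deletion (3.41 ± 0.32, adjusted p = 4.2e-11). The ICL2 row (Spar_16.347), named for a gene whose product in S. cerevisiae is a mitochondrial methylisocitrate lyase and not the lyase of the glyoxylate cycle, had 3.45, 1.52 and 0.768 CPM against 25.2, 20.2 and 21.0 CPM (3.47 ± 0.36, adjusted p = 8.4e-10). Both rows were low in wild type and clearly apart in the deletion. They needed the deletion libraries to pass the filter on low counts, as did the ICL1 row. ICL1 itself (Spar_5.210) was at 17.96, 21.8 and 16.9 CPM in wild type and 13.0, 16.8 and 16.7 CPM in the deletion, with every deletion library below the lowest wild type library, but not called (-0.32 ± 0.24, adjusted p = 0.26). MDH2 (Spar_15.44), which fell in S. cerevisiae, had 18.7, 18.7 and 24.6 CPM in wild type against 70.7, 93.2 and 74.2 CPM in the S. paradoxus deletion (1.94 ± 0.20, adjusted p = 2.8e-10). No test of the difference between species was made for it, since MDH2 and MDH3 share an orthogroup.

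Smaller changes were called for DAL7 (Spar_9.238, 0.99 ± 0.21), MDH3 (Spar_4.203, 0.34 ± 0.13, adjusted p = 0.022) and ACS2 (Spar_12.238, -0.35 ± 0.08), the acetyl-CoA synthetase gene used on glucose. The MDH3 call was lost without wild type A (0.29, adjusted p = 0.094) or deletion A (0.29, adjusted p = 0.072), and with library size alone ACS2 turned to 0.15 (adjusted p = 0.084). FBP1 (Spar_12.514, 0.36 ± 0.24) and the MCD1 row (Spar_4.279, -0.17 ± 0.10) were not called, and MCD1 turned to 0.33 (adjusted p = 0.0077) with library size alone.

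The log phase groups of S. paradoxus differed in mating type. STE2, the receptor gene of a cells, was at 615, 643 and 604 CPM in wild type and at 11.6, 13.5 and 16.3 CPM in the deletion, while STE3, the receptor gene of alpha cells, was at 6.22, 3.55 and 7.68 CPM against 442, 458 and 519 CPM. The 4 alpha-type rows summed to 30.9 to 35.9 CPM in wild type and 3379 to 3858 CPM in the deletion, the 8 a-type rows to 1841 to 1950 CPM and 548 to 596 CPM, and none was at 0 in all libraries of a group. Loss of SFP1 and mating type therefore cannot be told apart at log phase. In lag phase STE3 was high in both genotypes, at 289 to 387 CPM in wild type and 385 to 623 CPM in the deletion, and STE2 was at most 21.7 and 40.1 CPM. Wild type itself thus differed in mating type between log and lag phase, so phase and mating type cannot be told apart in wild type. In lag phase STE6 was at most 19.5 CPM in wild type and 25.1 CPM in the deletion, and Spar_9.174 at most 31.4 and 34.6 CPM. The alpha-type rows still summed to 960 to 1135 CPM in lag phase wild type against 3126 to 4084 CPM in the deletion. The a-type list summed to 507 to 566 CPM against 833 to 1058 CPM, mostly through the other rows of the BAR1 orthogroup. The part of these differences in the lag phase results was not tested.

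At 30 min after glucose return 7 member rows rose and 1 fell of 11 (background 52.9% called, 28.3% rising and 24.6% falling). The citrate synthase genes were low in wild type at that time and high in the deletion. CIT1 had 4.82, 9.15 and 10.4 CPM in wild type and 108, 126 and 149 CPM in the deletion (4.02 ± 0.30, adjusted p = 1.8e-13). CIT2 had 7.23, 9.15 and 12.5 CPM against 80.9, 197 and 197 CPM (4.28 ± 0.31, adjusted p = 1.4e-13). In both rows the lowest deletion library was several times the highest wild type library.

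MDH2 was at 26.5, 12.8 and 20.8 CPM in wild type and at 216, 299.6 and 285 CPM in the deletion (3.87 ± 0.27, adjusted p = 6.2e-14). The ICL2 row had 0 counts in all 3 wild type libraries and 27.0, 66.6 and 45.8 CPM in the deletion, at least 26.0-fold higher when wild type is set to the 3 counts that 0 allows for the whole group. ICL1, flat at log phase, now had 9.64, 3.66 and 8.31 CPM in wild type and 27.0, 42.8 and 36.3 CPM in the deletion (2.46 ± 0.48, adjusted p = 5.9e-05). None of these rows overlapped between the genotypes.

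MLS1 had 19.3, 16.5 and 8.31 CPM in wild type and 27.0, 30.9 and 26.7 CPM in the deletion, with no overlap but no call (0.97 ± 0.44, adjusted p = 0.067). FBP1 was at 55.5, 31.1 and 43.6 CPM in wild type and 0, 28.5 and 22.9 CPM in the deletion (-0.80 ± 0.35, adjusted p = 0.052). It was one of the few member rows that stood lower in the deletion, beside MCD1, which fell (-0.82 ± 0.18, adjusted p = 2.7e-04). ACS2 (0.49 ± 0.10) and DAL7 (1.10 ± 0.37, adjusted p = 0.012) rose, the last not called without wild type C (0.93, adjusted p = 0.052) or deletion C (0.93, adjusted p = 0.119). MDH3 was not called (0.94 ± 0.40, adjusted p = 0.054). Deletion A was the library with 34081 counts: without it 9 rows were called, MDH3 being the addition (0.998, adjusted p = 0.042), and CIT1, CIT2 and MDH2 stood at 4.04, 4.32 and 3.90. RLE scaling moved the median of all rows by -0.11.

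At 60 min 7 rows again rose and 1 fell (background 50.8%, with 25.7% rising and 25.0% falling, or 1912 rows rising and 808 falling with library size alone in place of 1263 and 1229). Wild type CIT1 had recovered to 108, 159 and 110.1 CPM, while the deletion held 358, 319 and 396 CPM (1.496 ± 0.13, adjusted p = 9.2e-12). CIT2 was at 48.8, 35.8 and 42.0 CPM against 165, 97.8 and 124 CPM (1.58 ± 0.22, adjusted p = 1.8e-07). The genotypes still did not overlap in either row, but the gaps were narrower than at 30 min, as tested below.

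MDH2 remained far higher in the deletion at 60 min, with 12.2, 21.1 and 50.02 CPM in an uneven wild type and 266, 249.7 and 199.6 CPM in the deletion (3.14 ± 0.23, adjusted p = 2.4e-13). The ICL2 row had 0, 0 and 2.00 CPM against 25.1, 31.6 and 28.1 CPM (5.32 ± 0.70, adjusted p = 1.3e-07), a ratio that rests on a single wild type count. MLS1 had 1.74, 3.25 and 4.002 CPM against 8.36, 34.6 and 23.9 CPM (2.94 ± 0.56, adjusted p = 4.1e-05), with deletion A well below B and C. ICL1 had 5.23, 1.63 and 2.00 CPM in wild type and 14.6, 24.1 and 5.62 CPM in the deletion, where the libraries spread widely (2.25 ± 0.62, adjusted p = 0.0027) and the call was lost without deletion B (1.61, adjusted p = 0.062). DAL7 rose (1.18 ± 0.31) and ACS2 fell (-0.41 ± 0.09), the latter not called with library size alone (-0.13). FBP1 (-0.29 ± 0.47), MDH3 (0.28 ± 0.24) and MCD1 (0.04 ± 0.12) were not called.

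Within S. paradoxus wild type, 7 of 11 member rows changed between 30 and 60 min (36.6% of all rows called, 19.8% falling). CIT1 rose by 3.91 ± 0.28 and CIT2 by 2.10 ± 0.39, as did MDH3 (1.27 ± 0.33), ACS2 (0.48 ± 0.09) and MCD1 (0.48 ± 0.13). FBP1, at 55.5, 31.1 and 43.6 CPM at 30 min, was down to 15.7, 9.76 and 8.004 CPM at 60 min (-1.91 ± 0.35), and MLS1 fell as well (-2.25 ± 0.65). The gluconeogenic gene FBP1 and the malate synthase gene MLS1 thus went down while the citrate synthase genes came up. In the deletion 7 of 11 rows changed over the same interval (22.7% of all rows, 7.97% rising): CIT1 (1.39 ± 0.15) and MCD1 (1.33 ± 0.17) rose, and FBP1 (-1.40 ± 0.45), ICL1 (-1.40 ± 0.39), the ICL2 row (-0.92 ± 0.30), CIT2 (-0.59 ± 0.18) and ACS2 (-0.43 ± 0.09) fell.

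The falls in the deletion depended on the scaling and on single libraries. With library size alone 4 rows were called and the median of all rows moved by 0.42, with 1713 rising and 300 falling in place of 391 and 722. In fits without deletion B at 30 min, FBP1 (-1.21), the ICL2 row (-0.63), CIT2 (-0.55) and ICL1 (-1.28) were not called. Leaving out deletion C at 60 min ended the calls of FBP1 (-1.33), the ICL2 row (-0.90), CIT2 (-0.57) and ICL1 (-0.95), leaving out deletion C at 30 min those of FBP1 (-1.496) and CIT2 (-0.55), leaving out deletion A at 60 min that of the ICL2 row (-0.86), and leaving out deletion B at 60 min that of CIT2 (-0.43). In wild type, library size alone moved the median by 0.19, with 1325 rising and 710.0 falling in place of 821 and 974.

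Whether the deletion effect itself changed with time was tested as an interaction. Between 30 and 60 min it shrank for CIT1 (-2.52 ± 0.36, adjusted p = 4.6e-06) and CIT2 (-2.69 ± 0.43, adjusted p = 2.9e-05). For ACS2 it turned from higher to lower (-0.91 ± 0.13, adjusted p = 5.1e-06). MCD1 moved the other way (0.85 ± 0.22, adjusted p = 0.0055, and 0.59 with no call without deletion B at 30 min). These 4 of 11 rows compare with 15.3% of all rows, 7.82% with a lower effect. For MDH2 (-0.74, 95% interval -1.59 to 0.12), ICL1 (-0.21, -2.26 to 1.85) and MLS1 (1.98, 0.47 to 3.48, adjusted p = 0.081) no change of the effect was called. In all rows 368 were higher and 384 lower, or 728 and 281 with library size alone, which moved the median by 0.23.

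**Figure D2:**
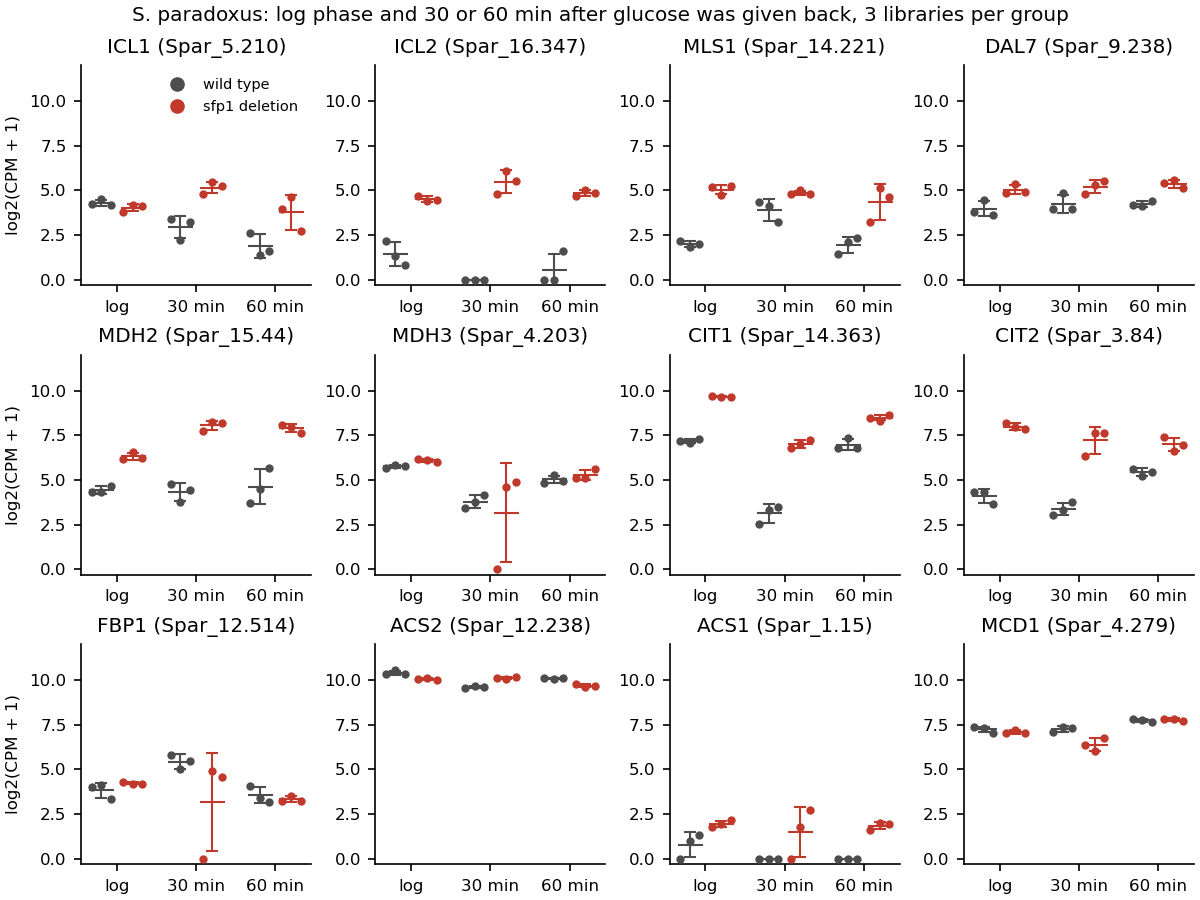
Levels of the 12 member rows in S. paradoxus as log2(CPM + 1) at log phase and at 30 and 60 min after glucose was given back, wild type in grey and sfp1 deletion in red; dots are the 3 libraries and bars the mean ± SD of the log values. CIT1 and CIT2 are low in wild type at 30 min (highest 10.4 and 12.5 CPM) and high in the deletion, MDH2 is high in the deletion at every time, and FBP1 in wild type is highest at 30 min. Wild type at log phase differs in mating type from wild type in lag phase. The libraries at 0 in FBP1, MDH3 and ACS1 of the 30 min deletion are the shallow replicate A.

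The 30 min effect also differed from that at log phase in 8 of 11 rows (31.8% of all rows called), where the log phase groups also differ in mating type genes, whose part in the difference was not tested. The signed effect was higher at 30 min for ICL1 (2.78 ± 0.54), MDH2 (1.93 ± 0.38), CIT1 (1.53 ± 0.36), ACS2 (0.84 ± 0.13) and the ICL2 row (5.26 ± 1.69, fitted with 0 counts in the wild type group). The signed effect was lower for MLS1 (-2.45 ± 0.60), for FBP1 (-1.16 ± 0.42), where it turned negative, and for MCD1 (-0.65 ± 0.21), where it became more negative. The calls of FBP1, the ICL2 row and MCD1 were each lost in at least 1 fit that left out a library, with values of -0.96 to -1.14, 4.63 to 5.30 and -0.38 to -0.59. Of all rows 987 were higher and 572 lower, which became 434 and 1272 with library size alone (median shift -0.45) and 703 and 826 with RLE scaling (-0.19).

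At 60 min against log phase 4 rows differed (25.2% of all rows, 9.11% lower): the effect was larger for ICL1 (2.58 ± 0.66) and MDH2 (1.198 ± 0.34) and smaller for CIT2 (-2.32 ± 0.31) and CIT1 (-0.99 ± 0.17). The ICL1 call was lost without deletion B at 60 min (1.93, adjusted p = 0.059), and the MDH2 call without wild type A (0.84, adjusted p = 0.071) or wild type B (1.004, adjusted p = 0.059) at 60 min. Over all rows 792 were higher and 447 lower, or 494 and 847 with library size alone (median shift -0.21) and 610.0 and 640.0 with RLE scaling (-0.11).

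Among the pathway lists of S. paradoxus, the TCA cycle had 14 rising and 1 falling of 18 rows at log phase, 9 and 2 at 30 min, and 8 and 3 at 60 min, with medians of 0.81, 0.42 and 0.29. At log phase the succinate dehydrogenase rows SDH2 (1.90 ± 0.12) and SDH1 (1.72 ± 0.10) and the fumarase row FUM1 (1.53 ± 0.09) led. The row of GID4 and GID10 (Spar_2.263), receptors of the ligase that removes gluconeogenic enzymes, rose by 2.19 ± 0.13, 2.86 ± 0.19 and 3.74 ± 0.23 at log phase, 30 and 60 min, within a degradation list of 8 in which 3, 4 and 3 rose and 0 fell. CAT8 (Spar_13.474), the activator of the response element, was named by the same rule at 30 min (2.59 ± 0.61) and 60 min (2.31 ± 0.42). Of 26 regulators 14, 13 and 11 rose and 4, 2 and 4 fell in that order of times.

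Acetyl unit supply had 5, 6 and 5 rising and 3, 2 and 2 falling of 12, with an alcohol dehydrogenase row (Spar_2.7, of the orthogroup of ADH2) at 2.97 ± 0.21, 3.94 ± 0.43 and 4.24 ± 0.37. Among carnitine enzymes and carriers 4, 2 and 3 of 9 rose and 3, 2 and 2 fell, led by YAT1 (1.77 ± 0.16, 3.21 ± 0.29 and 2.30 ± 0.24). Anaplerosis and reversible glycolysis had 2 rising and 11 falling of 14 at log phase, 5 and 3 at 30 min and 3 and 5 at 60 min, with MAE1 lower each time (-2.48 ± 0.10, -3.00 ± 0.14 and -1.72 ± 0.12). Irreversible glycolysis had 1, 2 and 1 rising and 6, 3 and 3 falling of 8, the hexokinase row Spar_7.15 falling each time (-1.16 ± 0.08, -2.13 ± 0.14 and -2.20 ± 0.10). The 3 tested glyoxylate partners had 2, 1 and 2 rising and 0, 1 and 0 falling, among them a row of the NADP-dependent isocitrate dehydrogenases (Spar_12.283) at -0.70 ± 0.24 at 30 min and 0.91 ± 0.32 at 60 min.

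Over the 18 S. paradoxus libraries the rows whose log2 CPM followed ICL1 most closely were SND3 (Spar_2.264, Pearson r = 0.88), a row of the vacuolar proteases YSP3 and PRB1 (Spar_5.14, 0.88), AIF1 (Spar_16.34, 0.87), CAR2 (Spar_12.581, 0.85) and the unnamed Spar_7.560 (0.85). The points share genotype, time and depth, and the correlations are given as a description.

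In N. glabratus most of these rows were not called in either paralog deletion, and neither were most genes of the whole table. Of 13 rows, 10 were tested; the PCK1 row CAGL0H06633g (0 to 2.58 CPM in wild type), the FBP1 row CAGL0I04048g and the isocitrate lyase group row CAGL0L09273g were below the filter. In delta CAGL0D00682g 0 of 10 were called, where 0.567% of all 4760 genes were (18 rose and 9 fell, or 15 and 4 with library size alone). With an unadjusted p below 0.05 there were 461 genes and 2 members, and DESeq2 called 20 genes and 0 members. The intervals were narrow for the abundant acetyl-CoA synthetase row CAGL0B02717g (-0.04 to 0.17) and wide for the malate synthase row CAGL0L03982g (-0.68 to 0.63).

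In delta CAGL0M09955g 2 of 10 rows rose and 0 fell. Of all genes tested 33.6% were called, with 15.0% of all genes rising and 18.6% falling. The malate dehydrogenase group row CAGL0L06798g had 69.5, 66.3 and 67.2 CPM in wild type and 85.1, 91.3 and 95.2 CPM in the deletion (0.42 ± 0.09, adjusted p = 2.0e-04). The acetyl-CoA synthetase group row CAGL0L00649g had 8.94, 5.60 and 7.52 CPM against 12.8, 13.1 and 12.3 CPM (0.80 ± 0.24, adjusted p = 0.0072). In neither did the groups overlap, but the second was not called with DESeq2 (adjusted p = 0.084) or without wild type B (0.64, adjusted p = 0.067). The citrate synthase rows CAGL0H03993g (0.11, 95% interval -0.02 to 0.25) and CAGL0B03663g (0.12, -0.30 to 0.54) were not called. Nor were the FBP1 row CAGL0H04939g and the isocitrate lyase group row CAGL0J03058g. These stood at -0.05 and 0.38 by the authors' deposited log ratios turned to deletion over wild type. The median was 0.25 over the members and 0.02 over all genes, of which 715 rose and 886 fell, or 1276 and 468 with library size alone (median shift 0.16).

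The TCA cycle had 15 rising and 0 falling of 21 in delta CAGL0M09955g, with the succinyl-CoA ligase rows LSC2 (CAGL0F08107g, 1.35 ± 0.10) and LSC1 (CAGL0I07139g, 1.34 ± 0.10) and MDH1 (CAGL0L05236g, 1.14 ± 0.11) in front. Anaplerosis and reversible glycolysis had 0 rising and 10 falling of 13, and irreversible glycolysis 3 rising and 4 falling of 8. Acetyl unit supply had 4 and 2 of 9, carriers 3 and 2 of 10, glyoxylate partners 1 and 0 of 3, regulators 4 and 2 of 28 and the degradation genes 0 and 0 of 8. In delta CAGL0D00682g 2 TCA rows rose, SDH1 (CAGL0J00847g, 0.35 ± 0.07) and ACO1 (CAGL0D06424g, 0.27 ± 0.06), and no gene of the other 7 lists was called.

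Set directly against each other, delta CAGL0M09955g had 4 member rows higher than delta CAGL0D00682g (29.5% of all genes called): CAGL0L00649g (0.99 ± 0.24), the malate dehydrogenase row CAGL0E01705g (0.77 ± 0.27), the citrate synthase row CAGL0H03993g (0.27 ± 0.07) and the isocitrate lyase group row CAGL0C04433g (0.25 ± 0.08). CAGL0H03993g had 173, 153 and 152 CPM in delta CAGL0D00682g and 187, 185 and 202 CPM in delta CAGL0M09955g, with wild type between at 165, 178 and 185 CPM. The calls of CAGL0E01705g and CAGL0C04433g were lost without delta CAGL0D00682g A (0.60 and 0.19) or delta CAGL0M09955g B (0.56 and 0.23), and the former also without delta CAGL0M09955g A (0.75). Over all genes 586 were higher and 817 lower, or 1153 and 454 with library size alone (median shift 0.15).

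In N. castellii delta Scas551.1 raised 6 and lowered 0 of 12 rows (41.8% of all 5338 genes called, 21.4% rising and 20.4% falling). The citrate synthase row NCAS0C05050 had 80.0, 83.0 and 86.5 CPM in wild type and 213, 202 and 207 CPM in the deletion (1.32 ± 0.09, adjusted p = 7.8e-11). PCK1 (NCAS0A03160) had 6.35, 6.46 and 3.60 CPM against 20.1, 13.5 and 19.7 CPM (1.66 ± 0.25, adjusted p = 1.3e-05). The malate dehydrogenase group row NCAS0C04560 had 5.49, 5.49 and 5.04 CPM against 16.6, 19.5 and 15.7 CPM (1.69 ± 0.22, adjusted p = 1.8e-06). In these 3 rows the lowest deletion library stood far above the highest wild type library.

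The malate synthase group row NCAS0G02510 went from 28.9, 23.9 and 31.3 CPM to 59.7, 48.1 and 47.2 CPM (0.89 ± 0.15, adjusted p = 4.8e-05), and a second malate dehydrogenase group row, NCAS0A04020, rose by 0.72 ± 0.13. The isocitrate lyase group row NCAS0E03310 was called at 3.18, 3.88 and 2.52 CPM against 8.80, 7.51 and 3.94 CPM (1.08 ± 0.35, adjusted p = 0.014), with deletion C close to wild type. That call was lost with DESeq2 (adjusted p = 0.062) and without deletion A (0.85), deletion B (1.01) or wild type C (0.96). The row needed deletion libraries to pass the filter on low counts, so its entry into the test depended on the rise. It is included in the counts and medians of members for both N. castellii deletions. FBP1 (NCAS0J01330), at 4.04 to 6.12 CPM in wild type, was not called (0.37, 95% interval -0.22 to 0.95), nor were the 3 acetyl-CoA synthetase group rows. The other malate synthase group row, NCAS0D04890, and the other isocitrate lyase group row, NCAS0I00820, were called in neither N. castellii deletion. In delta Scas551.1 they stood below 0, at -0.26 and -0.16 by the authors' deposited log ratios turned to deletion over wild type. Over all genes 1140.0 rose and 1090.0 fell, or 1672 and 548 with library size alone (median shift 0.17), and the medians were 0.54 over the members and 0.03 over all genes.

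Delta Scas719.24 raised 7 and lowered 1 of the same rows (26.1% of all genes called, 14.8% rising and 11.3% falling), by smaller amounts for most. PCK1 was at 9.23, 12.1 and 13.7 CPM (1.07 ± 0.26, adjusted p = 0.0030) and the citrate synthase row at 105, 129 and 106 CPM (0.45 ± 0.09, adjusted p = 7.7e-04), above every wild type library in both. NCAS0A04020 was at 42.7, 41.1 and 37.5 CPM (0.53 ± 0.12, adjusted p = 0.0027). The acetyl-CoA synthetase group rows NCAS0B03240 (0.31 ± 0.07) and NCAS0A07630 (0.81 ± 0.23) rose, NCAS0C03040 fell (-0.27 ± 0.09, adjusted p = 0.036), and NCAS0C04560 (0.67 ± 0.24, adjusted p = 0.041) and NCAS0E03310 (0.94 ± 0.32, adjusted p = 0.035) rose.

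Several of these calls were near the threshold. Without delta Scas719.24 A, NCAS0A07630 (0.64), NCAS0C03040 (-0.24) and NCAS0E03310 (0.98) were not called, without B NCAS0C04560 (0.69) and NCAS0E03310 (1.01), and without C NCAS0C03040 (-0.27), NCAS0C04560 (0.56) and NCAS0E03310 (0.81). Leaving out wild type A ended the calls of these 4 rows (NCAS0A07630 at 0.60, NCAS0C03040 at -0.27, NCAS0C04560 at 0.69, NCAS0E03310 at 0.93). Leaving out wild type B ended those of NCAS0C03040 (-0.25) and NCAS0C04560 (0.68), and leaving out wild type C those of NCAS0C03040 (-0.29), NCAS0C04560 (0.63) and NCAS0E03310 (0.81). Library size alone moved the median of all genes by -0.15, with 526 rising and 1174 falling in place of 790.0 and 603, and ended the calls of NCAS0B03240 (0.16), NCAS0C04560 (0.52) and NCAS0E03310 (0.78).

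The paralog deletions of N. castellii differed from each other in 4 member rows (24.1% of all genes called). Delta Scas719.24 was lower for the citrate synthase row (-0.87 ± 0.09, adjusted p = 8.0e-08), the malate dehydrogenase group row NCAS0C04560 (-1.02 ± 0.20) and the malate synthase group row NCAS0G02510 (-0.77 ± 0.15), and higher for NCAS0A07630 (0.78 ± 0.26, adjusted p = 0.028). NCAS0A07630 was not called without delta Scas551.1 A (0.83), B (0.84) or C (0.69) or delta Scas719.24 A (0.62) or B (0.76). For PCK1 the difference was -0.60 (95% interval -1.03 to -0.16, adjusted p = 0.054). Over all genes 687 were higher and 602 lower, or 181 and 2174 with library size alone (median shift -0.33).

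The TCA cycle of N. castellii rose with the citrate synthase row, with 21 rising of 21 in delta Scas551.1, led by SDH2 (NCAS0C05870, 2.70 ± 0.17), SDH1 (NCAS0F02320, 2.29 ± 0.10) and MDH1 (NCAS0H03320, 2.08 ± 0.09). In delta Scas719.24 16 rose and 0 fell (SDH2 1.23 ± 0.19), and 17 of 21 were lower than in delta Scas551.1. Glyoxylate partners had 4 and 0 of 4 in delta Scas551.1 and 2 and 0 in delta Scas719.24. Anaplerosis and reversible glycolysis had 2 rising and 6 falling of 15 and 3 and 0, with MAE1 (NCAS0A04810) at -2.29 ± 0.21 and 0.35 ± 0.13. Rising and falling counts for acetyl unit supply were 5 and 3 of 11 and 4 and 3, for carriers 4 and 2 of 11 and 4 and 1, for irreversible glycolysis 1 and 4 of 7 and 1 and 2, for regulators 9 and 4 of 28 and 6 and 1, and for the degradation genes 3 and 0 of 8 in both.

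In K. lactis, a yeast known for respiring on glucose, 2 rows rose and 3 fell of 8 in the deletion, shares near those of all 4941 genes (66.4% called, 33.1% rising and 33.3% falling). The malate synthase row KLLA0F23914g had 15.4, 16.1 and 16.1 CPM in wild type and 70.1, 69.1 and 68.1 CPM in the deletion, a tight and complete separation (2.12 ± 0.12, adjusted p = 2.6e-11). The isocitrate lyase group row KLLA0C08107g had 8.32, 4.32 and 10.1 CPM against 14.7, 11.03 and 16.1 CPM (0.89 ± 0.26, adjusted p = 0.0058). KLLA0C08107g needed the deletion libraries to pass the filter on low counts, so its entry into the test depended on the rise. The counts and median of members include it.

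The rows that fell were an acetyl-CoA synthetase row, the citrate synthase row and PCK1. The acetyl-CoA synthetase group row KLLA0D17336g went from 1047, 988 and 982 CPM to 443, 432 and 479 CPM (-1.16 ± 0.06, adjusted p = 2.5e-11). The citrate synthase row KLLA0F12760g went from 1149.7, 1037 and 1171 CPM to 747, 773 and 733 CPM (-0.58 ± 0.06, adjusted p = 2.3e-07). PCK1 (KLLA0A00484g) went from 58.3, 42.4 and 49.9 CPM to 31.4, 33.1 and 29.0 CPM (-0.68 ± 0.13, adjusted p = 1.8e-04). In each of these the deletion libraries lay below every wild type library. The malate dehydrogenase group row KLLA0F17050g (-0.16, 95% interval -0.33 to 0.00), the row KLLA0F14795g of the isocitrate lyase group (0.21, 0.02 to 0.40) and KLLA0A03333g (-0.23, -0.53 to 0.08) were not called. The medians were -0.20 over the members and 0.01 over all genes, of which 1634 rose and 1645 fell, or 2140.0 and 1064 with library size alone (median shift 0.23). FBP1 of K. lactis was not analysed.

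**Figure D3:**
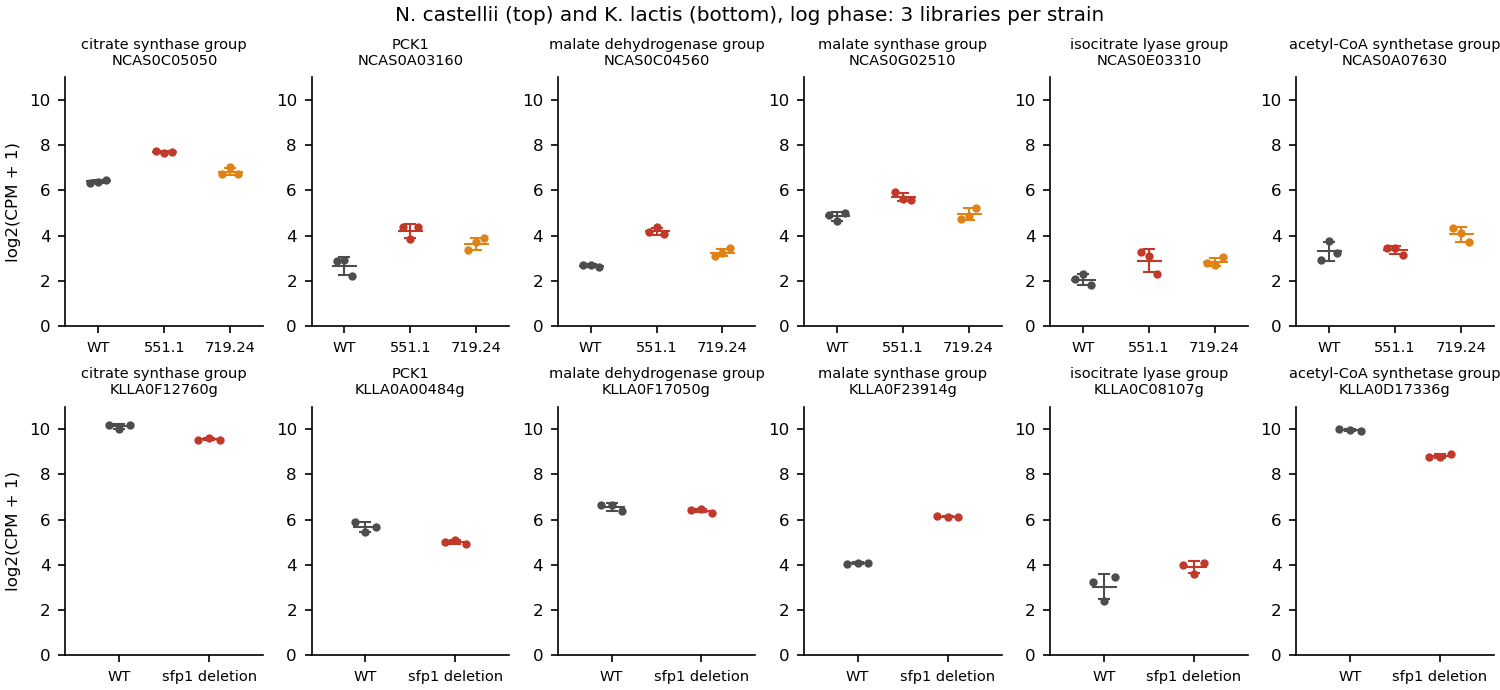
Levels of 6 member rows in N. castellii (top: wild type, delta Scas551.1, delta Scas719.24) and 6 in K. lactis (bottom: wild type, delta sfp1) at log phase, as log2(CPM + 1); dots are the 3 libraries and bars the mean ± SD of the log values. The citrate synthase and PCK1 rows rise in both N. castellii deletions and fall in the K. lactis deletion, while the malate synthase row rises in K. lactis (2.12) and in delta Scas551.1 (0.89).

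Around these rows in K. lactis, alcohol and aldehyde dehydrogenase rows of acetyl unit supply fell steeply (3 rising and 5 falling of 8): KLLA0B09064g of the ADH2 orthogroup (-6.20 ± 0.10), KLLA0C07777g of the ALD4, ALD5 and ALD6 orthogroup (-3.99 ± 0.10) and KLLA0F13530g of the ADH2 orthogroup (-2.41 ± 0.09). The degradation genes had 7 rising of 7, with the GID4 row KLLA0B09592g at 1.22 ± 0.12. The TCA cycle had 6 rising and 6 falling of 15, glyoxylate partners 3 and 0 of 3, carriers 2 and 2 of 6, anaplerosis and reversible glycolysis 4 and 1 of 7, irreversible glycolysis 4 and 1 of 5 and regulators 6 and 6 of 19. ADR1 (KLLA0F13046g), in S. cerevisiae an activator of ADH2, rose by 1.95 ± 0.12.

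In S. pombe, a distant relative, 1 of 5 rows was called in the libraries labelled deletion (10% of all 5296 genes called, 3.19% rising). Citrate synthase cit1 (SPAC6C3.04) had 238, 219 and 227 CPM in wild type and 269, 298 and 264 CPM in the labelled deletion, without overlap (0.29 ± 0.08, adjusted p = 0.049). This call was lost with no filter on low counts (adjusted p = 0.067), without wild type B (0.26) or C (0.28) and without labelled deletion A (0.32), B (0.23) or C (0.32). Fbp1 (SPBC1198.14c) had 11.8, 7.11 and 5.33 CPM against 14.9, 11.1 and 15.2 CPM (0.74 ± 0.40, adjusted p = 0.31). Icl1 (SPBC1683.11c) ranged from 0 to 17.1 CPM over the labelled deletion libraries and from 4.53 to 16.6 CPM in wild type, so that no direction could be read. Acs1 (SPCC191.02c, -0.11 ± 0.12) and rad21 (SPCC338.17c, -0.01 ± 0.15), the cohesin gene grouped with MCD1, were not called.

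Over all S. pombe genes 169 rose and 361 fell, or 343 and 237 with library size alone (median shift 0.12). The TCA cycle had 1 rising and 1 falling of 16, acetyl unit supply 2 and 1 of 4, anaplerosis and reversible glycolysis 4 and 0 of 11, and the other 5 lists 0 and 0 (1 glyoxylate partner, 3 carriers, 4 genes of irreversible glycolysis, 12 regulators and 8 degradation genes). Of these the glyceraldehyde-3-phosphate dehydrogenase row SPBC354.12 had the largest rise (1.25 ± 0.09).

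**Figure D4:**
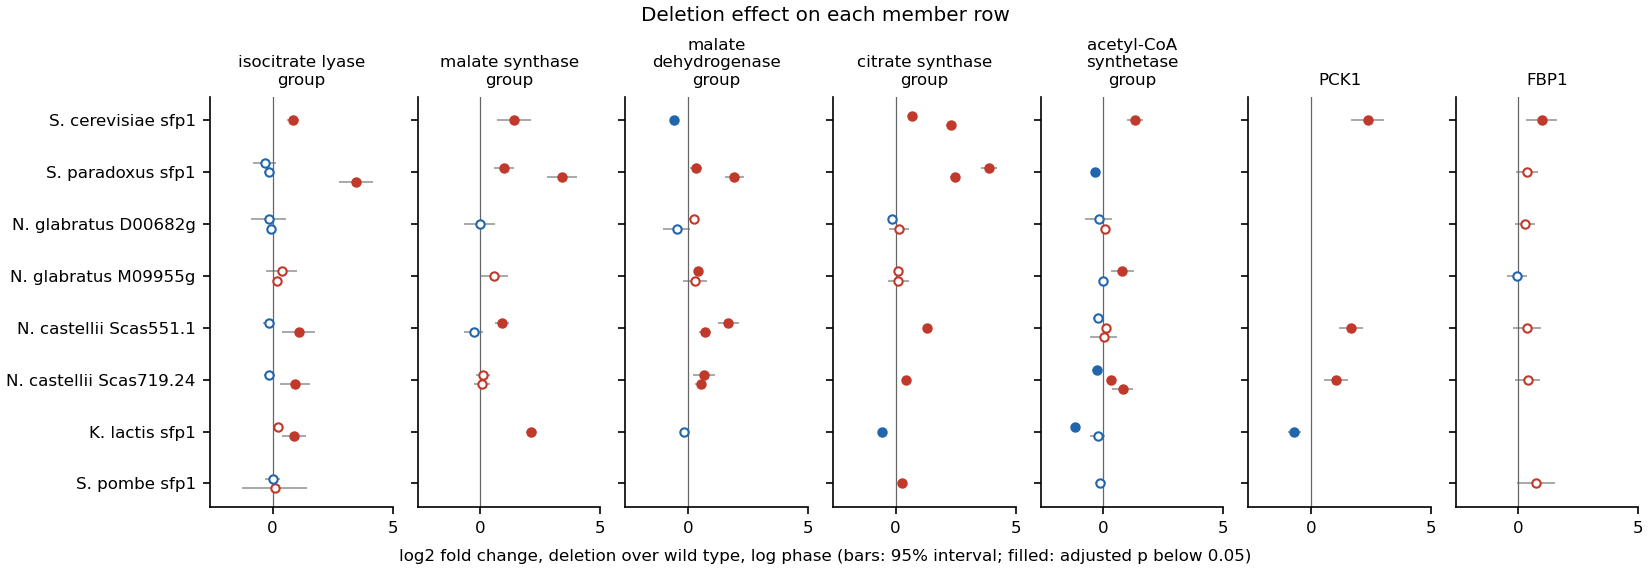
Log2 fold change of every tested member row, deletion over wild type at log phase, by orthogroup (panels) and deletion (rows); horizontal bars are 95% intervals, filled symbols have an adjusted p below 0.05, red is above 0 and blue below. Citrate synthase rows are filled and above 0 in S. cerevisiae, S. paradoxus, N. castellii and S. pombe (0.29 to 3.90), open in N. glabratus and below 0 in K. lactis (-0.58). The S. pombe libraries go against their deletion label, and their citrate synthase call was lost in several fits that left out a library.

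A difference between species in the deletion effect was tested against the S. cerevisiae deletion for the orthogroups with exactly 1 gene in both species, which among the members are PCK1 and FBP1. All these tests share the S. cerevisiae libraries. The PCK1 effect in K. lactis was lower by 3.02 ± 0.36 (adjusted p = 2.9e-11, where 53.4% of 2642 orthogroups differed). In delta Scas719.24 of N. castellii it was lower by 1.29 ± 0.45 (adjusted p = 0.016, with 41.2% of orthogroups differing), a call lost without S. cerevisiae wild type B (-1.28, adjusted p = 0.050) or N. castellii wild type A (-1.17, adjusted p = 0.056). In delta Scas551.1 the difference was -0.73 ± 0.45 (adjusted p = 0.20, with 42.7% differing), in delta CAGL0D00682g -1.41 ± 0.86 (adjusted p = 0.22, with 34.6%) and in delta CAGL0M09955g -0.93 ± 0.82 (adjusted p = 0.39, with 36.8%). The N. glabratus row itself was below the filter within its species and entered the joined test only through the S. cerevisiae libraries, so these last values say little about it. PCK1 thus rose in the S. cerevisiae and both N. castellii deletions and fell in K. lactis.

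For FBP1 no difference from S. cerevisiae was called: -0.51 ± 0.38 in S. paradoxus (29.5% of orthogroups differing), -0.63 ± 0.43 and -0.57 ± 0.41 in the N. castellii deletions and -0.31 ± 0.48 in S. pombe (36.4%). These standard errors leave room for differences of about the size of the S. cerevisiae effect itself (0.97).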

How the data were processed

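PolyA RNA from 57 libraries (6 species, 19 groups of 3) was sequenced as paired reads. The authors deposited expected counts per gene, and the submitters' processing notes name RSEM 1.2.11, Bowtie 1 and edgeR with no role or order. The notes list the build ASM294v2, and for the other species the build is not given in the sources used here. Log2 ratios in the authors' deposited table give wild type over deletion, judged by regression on the counts. They were used as a check and for the few values marked as deposited. Other columns of the deposited table, which the labels attribute to microarrays, hold log ratios of unstated base and were read as scores.

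Expected counts were rounded to whole numbers. They were tested within each species with edgeR 4.0.16 in R 4.3.3 (quasi-likelihood test, TMM scaling, filterByExpr defaults, all groups of a species in 1 fit), with Benjamini-Hochberg adjustment over all genes tested and calls at an adjusted p below 0.05. Between species, orthogroups with exactly 1 gene in both were joined and the difference of deletion effects was tested. Intervals are 95% intervals of the log2 fold change and cover the spread between libraries. Alternatives were RLE factors, library size alone, no filter, a stricter filter (mean log2 CPM 4 or more), only the groups compared, a replicate block, DESeq2 1.42.0 and leaving out each library. The procedure was tested on simulated data.

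Members and pathway lists were chosen with earlier results of these data known. The 8 lists are the tricarboxylic acid cycle, other glyoxylate and peroxisomal partners, acetyl unit supply, carnitine and carbon carriers, anaplerosis and reversible glycolysis, irreversible glycolysis, regulators, and degradation of gluconeogenic enzymes; per list, the text names up to 3 called genes with the largest change, among those whose groups do not overlap and whose mean log2 CPM reaches 4, and all member rows are accounted for. For likeness, the 5 rows with the highest correlation of log2 CPM (prior count 2) were taken. Reads shared by near-identical paralogs are split by estimate in expected counts, so such rows are uncertain. Replicates of a group differed beyond sampling noise in all 57 pairs (chi-square per degree of freedom at least 1.09). Same-lettered libraries did not deviate together: of 78 pairs 0 had a correlation over 0.1 (range -0.17 to 0.09). A sample of S. cerevisiae labelled wild type in lag phase was not analysed here.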

Additional observations from a re-analysis of the deposited data

Results flagged for a closer look

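In S. paradoxus the deletion effect (log2, deletion over wild type) differed between times in several rows by edgeR's interaction test, with Benjamini-Hochberg adjusted p-values of 0.032 or lower. The CIT1 effect was 2.49 in log phase, 4.02 at 30 min and 1.496 at 60 min, so it differed by 1.53 from log phase to 30 min, by -2.52 from 30 to 60 min and by -0.99 from log phase to 60 min. The CIT2 effect was 3.90, 4.28 and 1.58, and differed by -2.69 from 30 to 60 min and by -2.32 from log phase to 60 min. Both citrate synthase genes rose at all 3 times, least at 60 min.

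ICL1 had effects of -0.32, 2.46 and 2.25 at the same times, with differences from log phase of 2.78 at 30 min and 2.58 at 60 min. MDH2 had effects of 1.94, 3.87 and 3.14, with differences of 1.93 and 1.198. The ICL2 row had effects of 3.47, 8.73 and 5.32, with a difference of 5.26 from log phase to 30 min, a fitted value with 0 counts in wild type at 30 min. MLS1 had 3.41, 0.97 and 2.94, and its effect was lower at 30 min than in log phase (-2.45).

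FBP1 had effects of 0.36 in log phase and -0.80 at 30 min (difference -1.16), neither of them called. ACS2 fell in log phase (-0.35) and at 60 min (-0.41) and rose at 30 min (0.49), with differences of 0.84 and -0.91. MCD1, a cohesin subunit gene that shares the ICL1 orthogroup in the deposited orthology, had -0.17, -0.82 and 0.04 (differences -0.65 and 0.85).

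Beside these differences, STE3 of log phase was at 3.55 to 7.68 CPM in wild type and 442 to 519 CPM in the deletion, so mating type and genotype cannot be told apart there. Wild type in lag phase had STE3 at 289 to 387 CPM, so in differences from log phase time and mating type cannot be told apart either. Deletion replicate A at 30 min held 34081 counts. Without that library the difference from 30 to 60 min was -2.54 for CIT1, -2.74 for CIT2, -0.90 for ACS2 and 0.85 for MCD1, and that from log phase to 30 min was 2.80 for ICL1 and 1.96 for MDH2.

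The PCK1 effect was 2.37 in S. cerevisiae, 1.07 in delta Scas719.24 of N. castellii and -0.68 in K. lactis. The difference from S. cerevisiae, tested over the joined tables of both species with edgeR, was -1.29 in N. castellii (adjusted p = 0.016) and -3.02 in K. lactis (adjusted p = 2.9e-11).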

How the results depend on the processing

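Over all alternatives, 2500 values of single members kept their side of the threshold, which includes uncalled values that may have changed direction. Another 38 gained a call and 100 lost one. A reversal of direction with a call in at least 1 of the fits occurred 2 times, both in S. paradoxus at log phase with library size alone: ACS2 to 0.15 and MCD1 to 0.33. The causes were not tested, except that the stricter filter removes low rows and leave-outs have fewer libraries. Members called with library size alone were 5 in delta CAGL0M09955g (2 in the report), 5 in delta Scas719.24 (8) and 4 in the S. paradoxus deletion from 30 to 60 min (7). With the filter at mean log2 CPM 4 they were 5 in the S. cerevisiae deletion (8), 3 in delta Scas719.24, and 2 each in the comparisons between the N. glabratus (4) and N. castellii (4) deletions. DESeq2 called 1 in delta CAGL0M09955g, 4 in delta Scas719.24 and 2 between the N. glabratus deletions. In S. pombe 0 were called with no filter and 0 with the replicate block.

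Leaving out 1 library gave 7 to 8 members called in the S. cerevisiae deletion, 7 to 9 in S. paradoxus at log phase, 7 to 9 at 30 min and 7 to 8 at 60 min, 7 in wild type from 30 to 60 min and 3 to 7 in the deletion. The interactions had 3 to 5 called (30 to 60 min), 6 to 8 (log to 30 min) and 3 to 4 (log to 60 min). Ranges were 2 to 3 in delta CAGL0M09955g, 2 to 5 between the N. glabratus deletions, 5 to 6 in delta Scas551.1, 4 to 6 in delta Scas719.24, 3 to 5 between these, 5 to 6 in K. lactis and 0 to 1 in S. pombe. The HA tagged strain and delta CAGL0D00682g had 0 in each leave-out. Of the differences from S. cerevisiae, 1 was called for K. lactis in each leave-out, 0 to 1 for delta Scas719.24 and 0 in the others.

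With the replicate block, NCAS0C03040 (-0.27) and NCAS0C04560 (0.67) in delta Scas719.24, S. pombe cit1 (0.28) and the FBP1 interaction from log phase to 30 min (-1.08) were no longer called, and no other member call was lost. Whether same-lettered libraries came from the same culture is not given in the labels, and the main tests treat all libraries as unpaired. Over all genes, DESeq2 called 8 and the block 3 in the HA tagged strain (0 in the report), and DESeq2 called 1039 in delta CAGL0M09955g (1601) and 884 between the N. glabratus deletions (1403). Library size alone gave 2013 in the S. paradoxus deletion from 30 to 60 min (1113) and 2355 between the N. castellii deletions (1289). S. pombe had 351 without wild type C, 278 without labelled deletion A and 278 without B (530.0), and the S. paradoxus deletion from 30 to 60 min 737 without deletion B at 30 min. Depth limits the lag phase of S. paradoxus most, where 1 library held 34081 counts and the others 418292 to 640282.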

Other observations

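The authors' deposited table also holds log ratios that its labels attribute to microarrays, after 15 to 90 min by the column names, with no error or number of arrays given here and no log base. Their sign was taken as that of the sequencing columns, since SFP1 then falls in both, and values below are turned to deletion over wild type. In the authors' deposited table the S. cerevisiae columns named RM put 8 of 8 members above 0 at 30, 60 and 90 min (medians 1.69, 2.18 and 1.36). The columns named BY in the authors' deposited table put 2, 5, 4 and 4 of 8 above 0 at 15, 30, 60 and 90 min (medians -0.61, 0.26, 0.26 and 0.03). Over all rows of the authors' deposited table the medians of the microarray columns used here lay between -0.005 and 0.04. The share of all rows above 0 was not computed. The N. castellii columns of this kind held no value for a member row.

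CIT2 was above 0 in every one of these columns of the authors' deposited table, at 1.64, 1.93, 2.99 and 2.62 in BY and 1.72, 1.76 and 1.15 in RM. MDH2, which fell in the log phase sequencing libraries, was below 0 in BY in the authors' deposited table (-0.83, -1.12, -0.68 and -0.39) and above 0 in RM (3.40, 3.30 and 1.71). ICL1 was near 0 in BY after 30 min and later (0.05, -0.06 and -0.04) and at 2.09, 2.34 and 1.58 in RM in the authors' deposited table. The difference between BY and RM was not tested.

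In N. glabratus the authors' deposited table puts 10 of 13 rows below 0 at 30 and 60 min in the columns whose names carry the digits of CAGL0D00682g (medians -1.33 and -1.01) and 12 of 13 above 0 at 90 min (0.997). In those that carry the digits of CAGL0M09955g it puts 11, 11 and 12 of 13 below 0, with PCK1 lowest (-4.16, -3.53 and -1.39 in the authors' deposited table). In K. lactis 4, 5 and 7 of 8 rows were below 0 in the authors' deposited table. In S. pombe the medians of 5 rows were 0.60, 0.32 and 0.33 in the authors' deposited table, where SFP1 itself stood at -7.50 to -8.07, whereas the sequencing libraries labelled deletion kept 226 counts of it.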
